A study of Mus musculus with 9 samples.

Results

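Rab3a, Kcnc1, Asic4, Cgref1 and Pgpep1l are 5 weakly expressed genes of the mouse heart libraries, and they were followed through every library of the control check (CK), diabetic cardiomyopathy (DCM) and spermine (SPM) groups. They were picked from the 22851 genes of the count matrix because their values in these libraries were high in DCM and low in SPM. Their levels, fold changes and standard errors (SE) are therefore given as a description, with no p-value. The label of genes peaking in diabetic hearts held for 3 of them. Rab3a, Asic4 and Cgref1 were higher in every DCM library than in any CK or SPM library, whereas Kcnc1 and Pgpep1l overlapped between DCM and CK and stood apart only by being low in SPM.

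The libraries came from the myocardium of male C57BL/6J mice, which the deposited labels give as C57BL/6, aged 6 to 8 weeks at the start, with 3 libraries per group. CK mice were the normal controls and received an injection of citrate buffer. DCM mice received a single injection of streptozotocin, which destroys insulin-producing cells, and were diabetic for 12 weeks. SPM mice received the same injection, with spermine, a natural polyamine, at 1 mg/kg daily over the 2 weeks before it and then on alternate days after it. No group received spermine without streptozotocin, so its effect in healthy hearts cannot be read here. The methods speak in one passage of 3 mice per group and in another of 18 hearts in pools of 6, so the spread between libraries may be that between mice or between pools.

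Total counts lay between 29901300 and 39718680 per library. The tissue labels say heart while the extraction protocol in the labels speaks of retinas. Of 14 listed cardiomyocyte markers 11 were in the matrix, which lacked Actc1, Pln and Tnnc1. All 11 were above 1 CPM (the count scaled to a common library size) in every library. Of 16 listed photoreceptor and retina markers 11 were in the matrix, and only Rom1 reached that level in every library. The share of mitochondrial genes among the counts was 13.7% to 16.2% for CK libraries, 15.5% to 18.9% for DCM libraries and 21.0% to 21.1% for SPM libraries. SPM replicate 2 stood apart from the other libraries, because it lay between SPM replicates 1 and 3 for 66.3% of 14909 genes, against 15.6% to 38.7% for the other libraries within their groups. Of 2656 genes without a count in SPM replicates 1 and 3, only 30 had one in SPM replicate 2. The SPM values of the 5 genes are therefore given with and without it, and for other genes a call that was lost without it is named.

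The 5 genes are known for different tasks. Rab3a is a small GTPase on synaptic and hormone vesicles, which binds the vesicle when loaded with GTP and leaves it after the fusion of the vesicle with the cell membrane. Kcnc1 encodes Kv3.1, a voltage-gated potassium channel that opens at strongly depolarized voltages and closes fast, and it lets neurons fire at high rates. Asic4 belongs to the acid-sensing ion channels, which are sodium channels of neurons opened by protons, but it does not form a proton-gated channel by itself. Cgref1 is a secreted protein with calcium-binding EF hands, originally described as a p53-responsive growth inhibitor. Pgpep1l resembles pyroglutamyl peptidase, which removes pyroglutamate from the start of peptides, and its own role is less established. By this background Rab3a, Kcnc1 and Asic4 are neuronal-type genes, and Cgref1 and Pgpep1l are not specific to neurons.

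The promoters of 4 of the 5 genes were matched in RefSeq (GRCm38.p6), and the window ran over the 250 bases before the start of the RefSeq transcript. They are shown because Rab3a and Cgref1 were high together in DCM while Kcnc1 and Pgpep1l were low together in SPM. Each is written 5′ to 3′ on the strand of the gene, without the bases that lie inside the gene in GENCODE, and capitals mark the GC box (GGGCGG) and the core of the cAMP response element (TGACGT) on either strand. The printed stretch of Rab3a is chr8:70754453-70754678 on the plus strand and that of Kcnc1 is chr7:46396218-46396467 on the plus strand. That of Cgref1 is chr5:30945592-30945730 on the minus strand and that of Pgpep1l is chr7:68264234-68264483 on the minus strand. Bases left out numbered 24 for Rab3a and 111 for Cgref1, and matches inside them are not shown. Asic4 was not matched.
Rab3a: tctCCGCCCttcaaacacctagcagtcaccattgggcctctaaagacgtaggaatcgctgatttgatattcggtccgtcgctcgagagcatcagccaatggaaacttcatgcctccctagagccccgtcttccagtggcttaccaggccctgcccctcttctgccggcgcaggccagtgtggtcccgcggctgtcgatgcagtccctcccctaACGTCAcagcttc
Kcnc1: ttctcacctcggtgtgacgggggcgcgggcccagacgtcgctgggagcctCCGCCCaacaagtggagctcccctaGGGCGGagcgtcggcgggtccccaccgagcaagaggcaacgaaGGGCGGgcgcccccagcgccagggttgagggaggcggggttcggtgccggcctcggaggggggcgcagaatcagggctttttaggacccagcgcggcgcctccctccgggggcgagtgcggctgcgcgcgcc
Cgref1: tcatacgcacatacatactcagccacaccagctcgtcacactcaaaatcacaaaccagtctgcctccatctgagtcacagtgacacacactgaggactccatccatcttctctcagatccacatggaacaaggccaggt
Pgpep1l: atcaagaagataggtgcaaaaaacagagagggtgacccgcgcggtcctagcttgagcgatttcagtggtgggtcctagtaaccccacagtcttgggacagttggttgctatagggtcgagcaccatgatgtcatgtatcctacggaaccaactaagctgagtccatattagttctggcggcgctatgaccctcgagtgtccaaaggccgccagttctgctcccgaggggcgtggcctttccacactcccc

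These promoters differed in base composition. The 250-base window of Kcnc1 held 74.4% GC and 30 CG dinucleotides, and that of Rab3a 58.8% and 16. The windows of Cgref1 and Pgpep1l held 62.4% and 54.8% GC, with 14 and 12 CG dinucleotides. The median of 14542 promoters was 57.6% GC and 13 CG dinucleotides, so only Kcnc1 lay above the upper quartile of 65.2% GC. The GC box had 3 matches in the window of Kcnc1, 2 in that of Rab3a, 2 in that of Cgref1 and none in that of Pgpep1l, and 49.5% of all promoters held at least 1. The TGACGT core had 1 match, in Rab3a, and was held by 8.59% of all promoters. The E box CACGTG was in none of the 4 windows and was held by 7.46% of all promoters. The same was true of the TATA box TATAAA, held by 8.27%. Part of the RE1 element bound by the repressor REST, GGACAGC, was searched too, with no match in the 4 windows and 6.12% of all promoters holding it. A match in letters is not evidence of binding, and no motif searched was in all 4 windows.

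Rab3a showed the widest difference of the 5 genes. It had 6, 4 and 2 counts in CK replicates 1 to 3, 26, 46 and 112 in DCM, and 6, 4 and 2 in SPM. As normalized CPM, that is CPM scaled by TMM factors, these were 0.191, 0.112 and 0.0649 in CK, 0.653, 1.56 and 3.28 in DCM, and 0.185, 0.129 and 0.0651 in SPM. Every DCM library was above all CK and SPM libraries, which overlapped each other, but the DCM libraries differed among themselves by 5.02-fold. The summed count in DCM was 14.5-fold that in CK with an exact 95% counting interval of 8.12 to 28.6, and 14.0-fold that in SPM with an interval of 7.81 to 27.5. Such intervals hold the error of counting alone, without the variation among libraries.

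The Rab3a difference kept its direction with any 1 DCM library left out, although its size followed DCM replicate 3. That library carried 59.8% of the DCM level, replicate 2 carried 28.4% and replicate 1 carried 11.9%. The log2 fold change in DCM compared to CK was 3.86 (SE 0.67), and it was 3.13 without DCM replicate 3 and 4.27 without DCM replicate 1. Without DCM replicate 3 the ratio of DCM to CK was 8.48, with a counting interval of 4.57 to 17.2. The DCM libraries had 36.3 times the variance that counting alone gives, and their counting intervals of 0.427 to 0.957, 1.14 to 2.08 and 2.70 to 3.95 normalized CPM did not overlap. Against DCM, the log2 fold change of SPM was -3.80 (SE 0.67), and -3.82 without SPM replicate 2. It was -3.08 without DCM replicate 3, where the ratio of DCM to SPM was 8.16 with a counting interval of 4.40 to 16.5. For SPM compared to CK, Rab3a had too few counts for the filter of the 6-library fit, and the fit of all 9 libraries gave 0.05 (SE 0.82). The summed count of SPM was 1.04-fold that of CK, with a counting interval of 0.427 to 2.53, and 1.03-fold without SPM replicate 2.

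**Figure D1:**
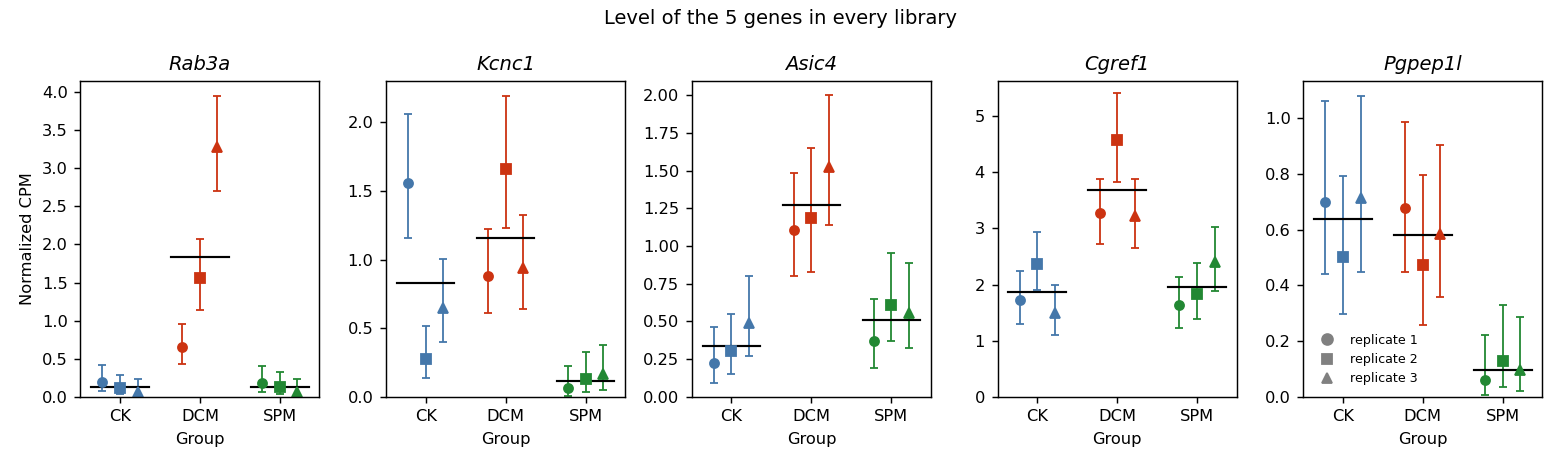
Normalized CPM (vertical axes, each from 0) of the 5 genes in the 3 libraries of CK, DCM and SPM, with the replicate shown by the symbol, exact 95% Poisson counting intervals as bars and the group mean as a black line. Rab3a, Asic4 and Cgref1 are highest in the 3 DCM libraries, with DCM replicate 3 far above the others for Rab3a, whereas Kcnc1 and Pgpep1l overlap between CK and DCM and are low in the 3 SPM libraries.

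Asic4 was the most even of the genes that peaked in DCM. It had 7, 11 and 15 counts in CK, 44, 35 and 52 in DCM, and 12, 19 and 17 in SPM. Normalized CPM were 0.223, 0.307 and 0.486 in CK, 1.11, 1.18 and 1.52 in DCM, and 0.369, 0.611 and 0.553 in SPM. The lowest DCM library stood above the highest CK and SPM libraries, while CK and SPM overlapped. The DCM libraries contributed 29.0%, 31.1% and 40.0% of the DCM level, and their variance was 1.38 times that of counting. Asic4 had a log2 fold change of 1.90 (SE 0.44) in DCM compared to CK and lay between 1.68 and 2.24 with any 1 library left out. Spermine-treated hearts compared to DCM gave -1.31 (SE 0.35), and -1.46 without SPM replicate 2. Compared to CK they gave 0.58 (SE 0.45), and 0.44 without SPM replicate 2.

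Cgref1 was the most abundant of the 5 genes and had the smallest difference among those that peaked in DCM. Its counts were 54, 85 and 46 in CK, 130, 135 and 110 in DCM, and 53, 57 and 74 in SPM. Normalized CPM were 1.72, 2.37 and 1.49 in CK, 3.27, 4.57 and 3.22 in DCM, and 1.63, 1.83 and 2.41 in SPM. All DCM libraries lay above all others, with DCM replicate 2 the highest, and CK and SPM overlapped. The ratio of the summed counts was 1.92 for DCM to CK, with a counting interval of 1.61 to 2.30, and 1.86 for DCM to SPM, with an interval of 1.55 to 2.23. Cgref1 had a log2 fold change of 0.98 (SE 0.26) in DCM compared to CK, and 0.80 without DCM replicate 2, which carried 41.3% of the DCM level. It was -0.91 (SE 0.24) in SPM compared to DCM, -0.86 without SPM replicate 2, and 0.06 (SE 0.28) in SPM compared to CK, or 0.11 (SE 0.36) without SPM replicate 2.

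Kcnc1 did not separate DCM from CK. Its counts were 49, 10 and 20 in CK, 35, 49 and 32 in DCM, and 2, 4 and 5 in SPM. Normalized CPM were 1.56, 0.279 and 0.649 in CK, 0.879, 1.66 and 0.938 in DCM, and 0.0616, 0.129 and 0.163 in SPM. CK replicate 1 lay within the DCM range and 5.60-fold above CK replicate 2, and every SPM library was below the other 6. The log2 fold change of 0.48 (SE 0.55) in DCM compared to CK was smaller than its error, and it moved to 1.32 without CK replicate 1, to 0.06 without CK replicate 2 and to 0.14 without DCM replicate 2. DCM replicate 2 alone carried 47.7% of the DCM level. In SPM compared to DCM the log2 fold change was -3.26 (SE 0.51), and -3.33 without SPM replicate 2. In SPM compared to CK, where Kcnc1 did not pass the filter of the 6-library fit, the fit of all 9 libraries gave -2.78 (SE 0.69). With SPM replicate 2 left out it passed the filter of the fit of the other 5 libraries of these groups, which gave -2.85 (SE 0.93).

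Pgpep1l did not separate DCM from CK either and was low in SPM. Its counts were 22, 18 and 22 in CK, 27, 14 and 20 in DCM, and 2, 4 and 3 in SPM. Normalized CPM were 0.701, 0.502 and 0.714 in CK, 0.678, 0.474 and 0.586 in DCM, and 0.0616, 0.129 and 0.0976 in SPM. The ranges of CK and DCM overlapped almost in full, and the highest SPM library was below the lowest of the other 6. DCM to CK gave a ratio of 0.932 with a counting interval of 0.643 to 1.35, and a log2 fold change of -0.13 (SE 0.44). The log2 fold change was -2.56 (SE 0.52) in SPM compared to DCM and -2.69 (SE 0.48) in SPM compared to CK, and these were -2.82 and -2.95 without SPM replicate 2. With 9 counts over the 3 SPM libraries, the ratio of DCM to SPM of 6.18 carried a counting interval of 3.05 to 14.2.

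The DCM libraries did not contribute in a fixed order. DCM replicate 3 was the highest for Rab3a and Asic4, DCM replicate 2 for Kcnc1 and Cgref1, and DCM replicate 1 for Pgpep1l. Summed over the 5 genes, DCM replicates 1 to 3 carried 25.7%, 36.9% and 37.3% of the DCM level. The sum lay between 6.58 and 9.55 normalized CPM in DCM, between 3.41 and 4.40 in CK and between 2.31 and 3.29 in SPM.

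**Figure D2:**
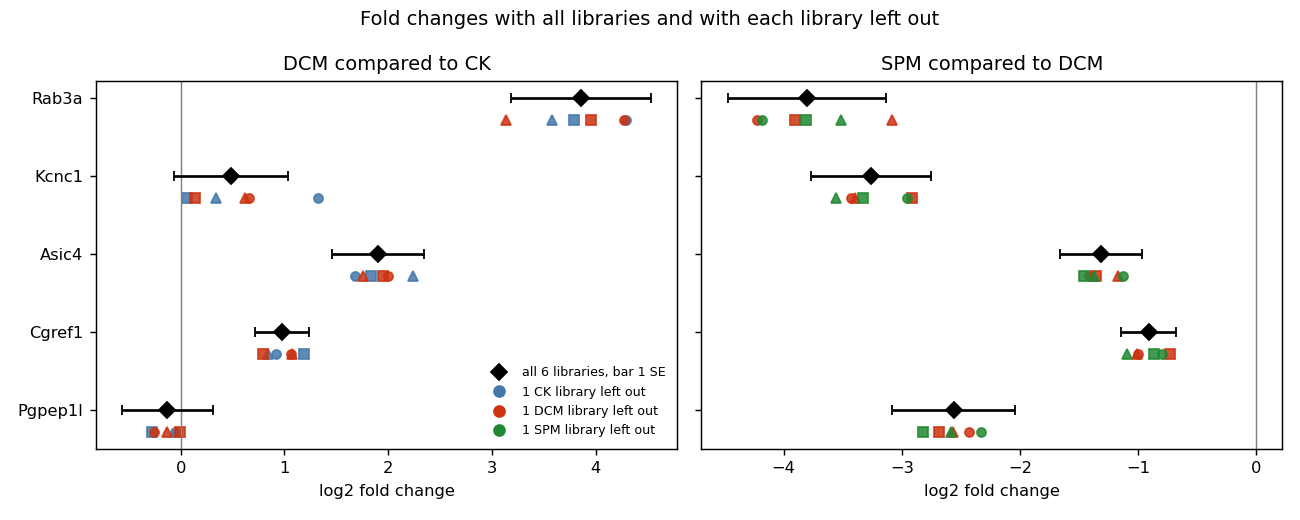
Log2 fold changes of the 5 genes (horizontal axes) in DCM compared to CK and in SPM compared to DCM. Black diamonds with bars of 1 SE use all 6 libraries, and the points below each diamond leave out 1 library, with the group left out given by the color and its replicate 1, 2 or 3 by a circle, square or triangle. Rab3a moves between 3.13 and 4.29 in the left panel and Kcnc1 between 0.06 and 1.32, whereas all values in the right panel stay below 0.

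The 5 genes were read against all genes of the same comparison. The libraries of DCM and CK did not overlap for 3 of the 5 genes, all higher in DCM, beside 14.5% of 14402 genes that were apart and higher. The libraries of SPM and DCM did not overlap for all 5, all lower in SPM, beside 19.5% of 14493 genes, or 20.4% without SPM replicate 2. Every DCM library was above all other libraries for 4.81% of 14909 genes, which include Rab3a, Asic4 and Cgref1, and every SPM library was below all others for 11.2%, which include Kcnc1 and Pgpep1l. Without SPM replicate 2 these shares were 4.98% and 11.9%. Since these values chose the 5 genes, nothing follows from their counts. With limits of 0.05 on the adjusted p and 1.5 on the fold change, 4.34% of genes were called in DCM compared to CK, 3.59% in SPM compared to DCM and 9.21% in SPM compared to CK. All 5 genes passed the low-count filter in the first of these comparisons and in the second, and 3 of 5 passed in the last. For Rab3a, which lay near the floor of counts in CK and SPM, the filter was passed only through DCM. The same held for Kcnc1 and Asic4 in DCM compared to CK, and for Kcnc1 and Pgpep1l in SPM compared to DCM.

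Per transcript length, all 5 genes were weakly expressed. In DCM the mean FPKM (the count per kilobase of gene, scaled to the library total) was 2.51 ± 0.486 for Cgref1, 1.15 ± 0.834 for Rab3a, 0.598 ± 0.116 for Pgpep1l, 0.468 ± 0.0785 for Asic4 and 0.146 ± 0.0525 for Kcnc1 (SD, n = 3 each). Every Cgref1 library was above those of the other 4 genes and every Kcnc1 library below them, while Rab3a, Pgpep1l and Asic4 overlapped. In CK the order was Cgref1 at 1.35, Pgpep1l at 0.700, Asic4 at 0.132, Kcnc1 at 0.112 and Rab3a at 0.0825 mean FPKM, and the last 3 lay within their spread of each other. In SPM Cgref1 stood at 1.32 and Asic4 at 0.187, and Pgpep1l, Rab3a and Kcnc1 at 0.0982, 0.0790 and 0.0148 mean FPKM. In mean expression over the 9 libraries, Rab3a was above only 4.84% of the genes that passed the filter and Cgref1 above 24.8%. In bulk tissue, fewer cells of a type and less RNA per cell cannot be told apart.

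On GRCm38 with GENCODE M21, which gave names and positions because the build behind the counts is unclear, all 5 are protein-coding genes. Rab3a lies at chr8:70754679-70758677 on the plus strand, Kcnc1 at chr7:46396497-46438704 on the plus strand and Asic4 at chr1:75450436-75474343 on the plus strand. Cgref1 lies at chr5:30933143-30945591 and Pgpep1l at chr7:68236610-68264233, both on the minus strand. The library kit did not keep strand, so reads of an overlapping gene cannot be told apart. Rab3a overlaps Mpv17l2 on the other strand over 29 bases and Asic4 overlaps Gm37264 over 2192 bases. Neither of these is in the count matrix, so their levels cannot be set beside Rab3a and Asic4.

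The transcripts of all 5 genes were richer in GC than the median gene, and fold changes in SPM compared to DCM followed GC content over all genes. GC was 55.0% for Rab3a, 57.4% for Kcnc1, 61.4% for Asic4, 57.5% for Cgref1 and 51.4% for Pgpep1l, against a median of 49.7%. Genes within 1 percentage point of each of these had a median log2 fold change of -0.14, -0.17, -0.23, -0.17 and -0.05 in SPM compared to DCM, in the same order. With the trend on GC removed, the 5 genes had log2 fold changes of -3.71, -3.11, -1.10, -0.75 and -2.53, against -3.80, -3.26, -1.31, -0.91 and -2.56 before. All 5 values moved toward 0 and kept their sign. The mitochondrial share was highest in the SPM libraries too, and its part in these values was not tested.

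**Figure D3:**
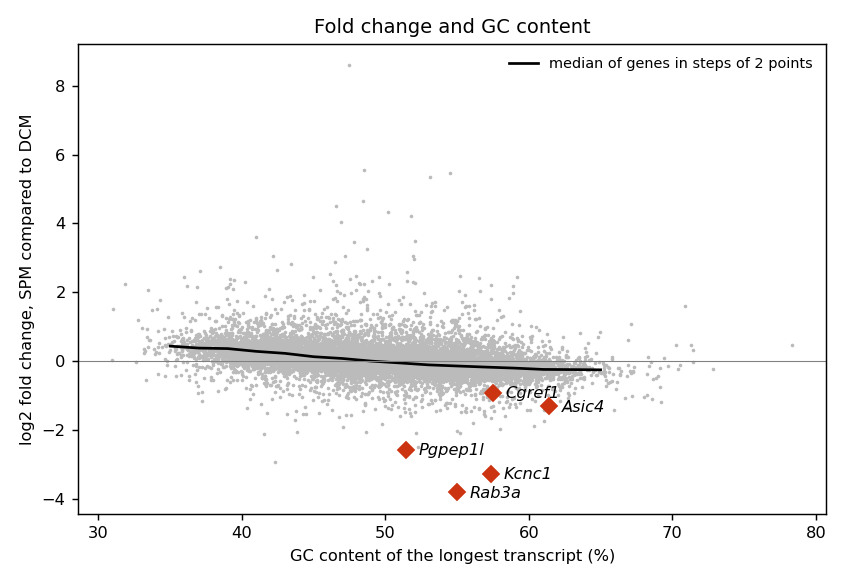
Log2 fold change in SPM compared to DCM (vertical axis) against the GC content of the longest transcript in % (horizontal axis) for all genes tested, in grey, with the 5 genes as red diamonds and the median of genes in steps of 2 percentage points as a black line. The median falls from 0.44 at the lowest GC content to -0.25 at the highest, and the 5 genes lie below it.

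Few genes of the Rab3 cycle were called. Rab3 proteins are loaded by exchange factors, act through effectors that dock vesicles, are switched off by GAP proteins and taken from the membrane by GDI. Of 27 genes of this cycle and of exocytosis, 22 were tested, and 0 of 22 were called in DCM compared to CK, where the median log2 fold change was 0.0031 and that of all genes -0.0025, and 0 of 22 in SPM compared to DCM, where the medians were -0.10 and 0.01. At an unadjusted p under 0.05 edgeR had 5 and 8 of these genes, and DESeq2 called 0 and 1, the latter being Unc13a. The edgeR quasi-likelihood test with Benjamini-Hochberg adjustment, used for every adjusted p here, called 2 of 22 in SPM compared to CK, 1 in each direction. Rab27a, another vesicle GTPase, had a log2 fold change of 0.82 (SE 0.12, adjusted p = 0.00274 with edgeR). Unc13a, a priming factor of synaptic vesicles, had -1.03 (SE 0.27, adjusted p = 0.0250 with edgeR), but its adjusted p lay between 0.00192 and 0.101 over 12 alternatives, and the call was lost when any 1 CK library or SPM replicate 2 was left out.

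Among the other Rab3 genes, Rab3d was far more abundant than Rab3a and had smaller differences of the same signs. Rab3d, which serves granules outside the nervous system, had 46.4, 37.6 and 40.3 normalized CPM in CK, 59.2, 68.1 and 54.5 in DCM and 42.3, 42.9 and 46.9 in SPM. All DCM libraries were above the others. Rab3d had a log2 fold change of 0.55 in DCM compared to CK (adjusted p = 0.00451 with edgeR) and -0.46 in SPM compared to DCM (adjusted p = 0.0143 with edgeR, 0.000208 to 0.0698 over 12 alternatives), below the fold-change limit in both. Vamp2, the vesicle SNARE and with Napa the most abundant gene of the list per length, stayed below the limit too, at 0.37 (adjusted p = 0.00445 with edgeR) and -0.23 (adjusted p = 0.0331 with edgeR, 0.0131 to 0.153 over the alternatives). Napa, which recycles SNARE complexes, had 0.16 (adjusted p = 0.209 with edgeR) and -0.25 (adjusted p = 0.0389 with edgeR). Rab3b had 1.88, 1.87 and 2.53 normalized CPM in CK, 1.83, 1.52 and 1.41 in DCM and 1.45, 1.32 and 1.37 in SPM, and was called in no comparison. Rab3c was near the floor, with 20 counts over CK, 2 over DCM and 2 over SPM, so unlike Rab3a it was not high in DCM. None of its CK counts was in CK replicate 1. Whether Rab3a differed from these genes in response was not tested.

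Of 9 tested genes of Kv channels other than Kcnc1, 0 were called in DCM compared to CK, where edgeR had 2 at an unadjusted p under 0.05 and DESeq2 called 0. In SPM compared to DCM 9 were tested too, of which 2 were higher and 7 lower. Their median log2 fold change was -0.24 there, against 0.01 for all genes. Kcnc4, Kcnc2, Kcnab2 and Kcna1 were called in no comparison. Kcnc4 had 1.63, 1.62 and 1.43 normalized CPM in CK, 1.98, 1.49 and 1.61 in DCM and 1.17, 1.09 and 1.14 in SPM, with an adjusted p of 0.144 from edgeR in SPM compared to DCM. Kcnc2 had its highest library in SPM, with 0.954, 1.03 and 1.56 normalized CPM there, 0.637, 0.697 and 0.519 in CK and 1.00, 0.305 and 1.11 in DCM. Its log2 fold change in SPM compared to CK was 0.92 (adjusted p = 0.0747 with edgeR). Kcnab2, a channel beta subunit, and Kcna1, the most abundant genes of the list per length, had log2 fold changes of 0.35 and -0.02 in SPM compared to DCM, with adjusted p of 0.254 and 0.958 from edgeR.

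**Figure D4:**
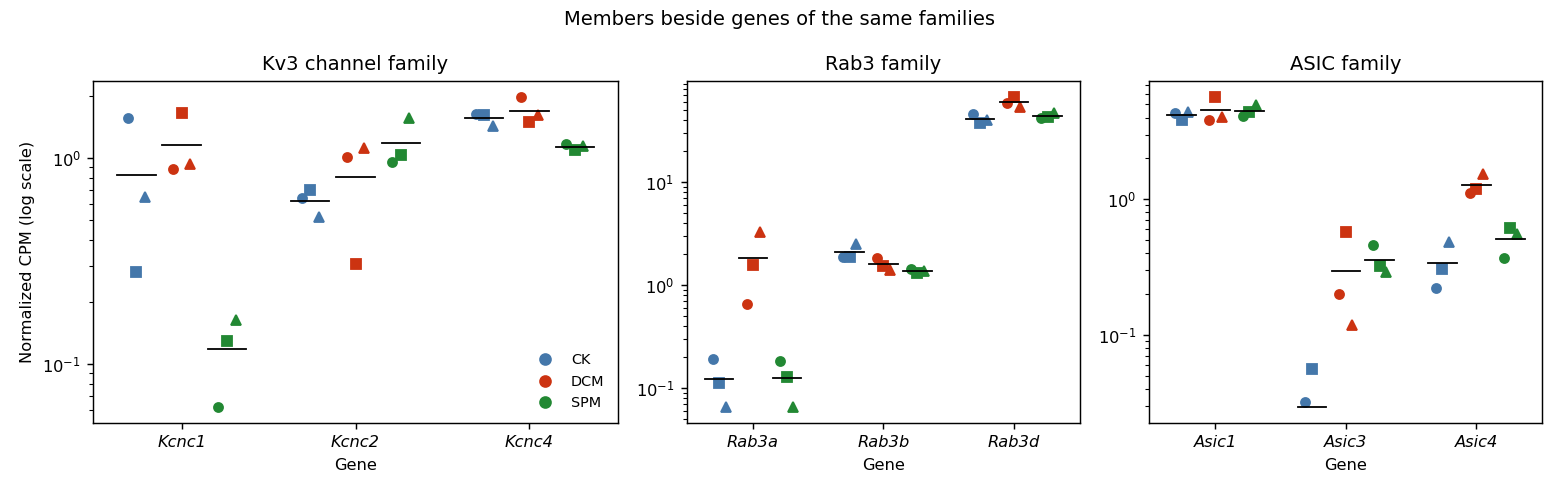
Normalized CPM (vertical axes, log scale) by library of Kcnc1 beside other Kv3 channel genes, of Rab3a beside other Rab3 genes and of Asic4 beside other acid-sensing channels. Blue, red and green are CK, DCM and SPM, circles, squares and triangles are replicates 1, 2 and 3, and black lines are group means. Asic3 in CK replicate 3, at 0, cannot be drawn on the log axis. Kcnc1 and Kcnc4 are lowest in SPM, and Rab3a lies below Rab3d in every library.

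None of the other acid-sensing or related sodium channel genes was called by edgeR in the 6-library fits with the low-count filter. These fits tested 4 in DCM compared to CK, 5 in SPM compared to DCM and 4 in SPM compared to CK. At an unadjusted p under 0.05 there were 1, 1 and 0, and DESeq2 called 0 in each. Asic1, the main proton-gated subunit of neurons, had 4.33, 3.82 and 4.41 normalized CPM in CK, 3.82, 5.72 and 4.07 in DCM and 4.12, 4.44 and 4.95 in SPM. The groups overlapped, and the log2 fold changes were 0.11 in DCM compared to CK and -0.01 for SPM against DCM, with adjusted p of 0.796 and 0.984 from edgeR. Asic3 was near the floor in CK, with 3 counts over the group, and had 29 in DCM and 34 in SPM, so unlike Asic4 it was not low in SPM. Among the 6-library fits it passed the filter only in SPM compared to DCM (log2 fold change 0.31, adjusted p = 0.751 with edgeR). Asic3 could be fitted under 5 alternatives in SPM compared to CK, with log2 fold changes of 2.90 to 3.52 and adjusted p of 0.0146 to 0.0405 from edgeR, and under 2 in DCM compared to CK, with 3.11 and 3.15 and adjusted p of 0.0439 and 0.104 from edgeR, where the size rests on the 3 counts of CK. Stom and Stoml1, membrane proteins of the stomatin family that bind such channels and the most abundant of the list per length, had log2 fold changes between -0.18 and 0.17.

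The paralogs and relatives of Cgref1 and Pgpep1l were not called. Pgpep1, the peptidase after which Pgpep1l is named, stood at 35.3 ± 1.43 normalized CPM in CK, 34 ± 1.28 in DCM and 34.5 ± 0.284 in SPM (SD, n = 3 each). Cgrrf1, a p53-responsive growth regulator found with Cgref1, was at 20.2 ± 0.689, 18.2 ± 1.22 and 14.6 ± 0.699, with a log2 fold change of -0.31 in SPM compared to DCM that stayed below the fold limit (adjusted p = 0.0403 with edgeR). Of 15 genes of these relatives and of p53 targets, 1 of 15 was called in DCM compared to CK. This was Cdkn1a, the cell cycle inhibitor p21, with 56.5, 64.8 and 83.2 normalized CPM in CK, 114, 152 and 145 in DCM and 107, 115 and 125 in SPM. Its log2 fold change was 1.01 (adjusted p = 0.000552 with edgeR), and it stayed at 0.76 in SPM compared to CK (adjusted p = 0.00484 with edgeR), where Cgref1 was at 0.06.

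In the SPM comparisons, other p53 targets were called in both directions. Trp53inp1, a stress protein that promotes p53 activity, was upregulated in SPM compared to DCM, with a log2 fold change of 0.83 (adjusted p = 0.00652 with edgeR), lost under GC correction at 0.0690, the highest of 12 alternatives that began at 1.18e-09. Against CK, 4 of 15 were called in SPM. Trp53inp1 had a log2 fold change of 1.27 (adjusted p = 0.00116 with edgeR), Cdkn1a 0.76 and Sesn1, a sestrin, 0.59 (adjusted p = 0.0143 with edgeR), while Bbc3, the cell death gene Puma, had -0.61 (adjusted p = 0.0231 with edgeR). The calls of Sesn1 and Bbc3 were each lost under 4 alternatives, which for Bbc3 included SPM replicate 2 left out. Ccng1 and Sesn1 were the most abundant of the list per length, and Ccng1 was called in no comparison.

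No neuronal marker was called in any comparison. Of 20 listed neuronal markers 17 were in the matrix, which lacked Nefl, Tubb3 and Slc18a3. Of these 17, 10 were tested in DCM compared to CK, 9 in SPM compared to DCM and 8 in SPM compared to CK. By edgeR 0 were called. In DCM compared to CK 3 of these markers were higher and 7 lower. The split was 4 and 5 in SPM compared to DCM, and 3 and 5 in SPM compared to CK. At an unadjusted p under 0.05 edgeR had 2, 0 and 1, and DESeq2 called 0 in each. Their summed level was 29.9 to 37.0 normalized CPM for CK, 28.7 to 34.6 for DCM and 31.4 to 34.6 for SPM. Th and Chat, which make the transmitters of sympathetic and parasympathetic nerves, had 2 and 6 counts over CK and none in DCM or SPM. All 6 Chat counts were in CK replicate 2. Among other markers with few counts, the neurofilament gene Nefm went the other way, with 24 over CK, 43 over DCM and 41 over SPM. Rbfox3, which encodes NeuN, did so too, with 6, 17 and 15. Snap25 and Syt1 did not, with 35 and 24 counts over CK, 17 and 5 over DCM and 13 and 12 over SPM. No CK count of either was in CK replicate 1. The more abundant Stmn2 had 10.9, 10.1 and 7.95 normalized CPM in CK and 7.79, 6.13 and 6.65 in DCM. It had 8.31, 8.46 and 7.78 in SPM. All its DCM libraries were below those of CK. The adjusted p of Nefm lay between 0.219 and 0.820 over 12 alternatives of edgeR and DESeq2 in the comparisons with CK. Dbh, the enzyme that forms noradrenaline, was at 7.44 ± 1.02, 5.79 ± 1.17 and 7.17 ± 0.450 normalized CPM in CK, DCM and SPM (SD, n = 3 each). Uchl1, a ubiquitin hydrolase of neurons and the most abundant marker per length, had a log2 fold change of 0.41 in DCM compared to CK, below the fold limit (adjusted p = 0.0423 with edgeR, 0.0226 to 0.148 over 12 alternatives).

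Markers of neuroendocrine and glial cells gave 1 call. Of 14 neuroendocrine genes 4, 5 and 4 were tested, with 0 called by edgeR or DESeq2 and 0 at an unadjusted p under 0.05 in each comparison. Pnmt, which makes adrenaline, had log2 fold changes of -0.08 in DCM compared to CK and 0.11 for SPM against DCM. Chga, Scg2 and Vgf had 11, 3 and 5 counts over CK, none of them in CK replicate 1, and none in DCM or SPM. Chga had 0.0558 and 0.292 normalized CPM in CK replicates 2 and 3. The granule protein gene Chgb had 7 counts over CK, 41 over DCM and 41 over SPM. All 7 were in CK replicate 1. Chgb could be fitted in DCM compared to CK under 6 alternatives and in SPM compared to CK under 5, with adjusted p of 0.0160 to 0.353 and 0.0461 to 0.266 from edgeR, the lowest of each without CK replicate 1, where no CK count was left. The summed neuroendocrine level, nearly all of it Cpe, lay between 291 and 348 normalized CPM in CK, 297 and 307 in DCM and 281 and 339 in SPM. Of 12 Schwann cell genes tested, edgeR and DESeq2 called 0 in DCM compared to CK or SPM compared to DCM, where 1 and 3 had an unadjusted p under 0.05. By edgeR, Cdh19 was higher in SPM compared to CK (log2 fold change 0.98, adjusted p = 0.00811 with edgeR), a call lost under GC correction and without SPM replicate 2. The summed Schwann cell level lay between 123 and 135 normalized CPM over the 9 libraries. The myelin genes Pmp22 and Cnp, the most abundant of them per length, had log2 fold changes of -0.15 and 0.23 in DCM compared to CK and 0.03 and -0.19 for SPM against DCM. The REST complex represses neuronal genes in other cells, and its 12 tested genes gave 0 calls in each comparison with edgeR and DESeq2. With edgeR, 1 of them had an unadjusted p under 0.05 in DCM compared to CK. In SPM compared to DCM 9 had one, and in SPM compared to CK 8. The share of all genes at that unadjusted limit was not computed, for this list or the others. Of the 12 REST complex genes, 6 were higher and 6 lower in each SPM comparison. The most abundant per length were the histone methyltransferase gene Ehmt2, with log2 fold changes of -0.03 in DCM compared to CK and -0.26 for SPM against DCM, below the fold limit (adjusted p = 0.875 and 0.0413 with edgeR), and the deacetylase gene Hdac1, with 0.04 and -0.03. Rest itself had log2 fold changes of 0.04 in DCM compared to CK (adjusted p = 0.890 with edgeR) and 0.25 for SPM against DCM (adjusted p = 0.0568 with edgeR). The 2 tested retina genes, Rom1 and Sag, gave 0 calls with edgeR or DESeq2 (0, 1 and 1 at an unadjusted p under 0.05). The retina sum, nearly all of it Rom1, was 19.2 to 22.1 normalized CPM for CK, 19.3 to 20.4 for DCM and 15.9 to 19.1 for SPM. Of 11 cardiomyocyte genes edgeR and DESeq2 called 0 in each comparison, with 3, 4 and 7 at an unadjusted p under 0.05. The myosin light chain genes Myl2 and Myl3 had log2 fold changes of 0.16 and 0.02 in DCM compared to CK and -0.17 and -0.30 for SPM against DCM. The summed cardiomyocyte level was 51713 to 57613 normalized CPM for CK, 50545 to 59366 for DCM and 44949 to 49579 for SPM. Its largest part was Myh6, with 22817, 22667 and 25836 in CK, 18801, 23766 and 20485 in DCM and 13956, 17400 and 20245 in SPM. Of the 11 genes, 5 were higher and 6 lower in SPM compared to CK, and 2 higher and 9 lower in SPM compared to DCM.

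The 5 genes fell into 2 sets by their levels over the 9 libraries. Pearson's r of log2 CPM was 0.80 for Rab3a and Asic4, 0.78 for Rab3a and Cgref1 and 0.77 for Asic4 and Cgref1, and 0.87 for Kcnc1 and Pgpep1l. The other pairs lay between 0.18 and 0.58. These are descriptions over 9 libraries that share 3 groups, so a group difference alone gives a high r. Among 14904 genes, the levels most like Rab3a were those of Plpbp (0.96), Espnl (0.95) and Abr (0.95), and those most like Kcnc1 were Shmt2, Irf2bp1 and Plbd2 (0.98 to 0.99). For Asic4 they were Wipf3 (0.96), Cpt1a (0.95) and Slc27a1 (0.95), for Cgref1 Atic (0.96), Plekha6 (0.96) and Gm32352 (0.94), and for Pgpep1l Mrpl36 (0.99), Dusp23 (0.98) and Lmcd1 (0.98). Cpt1a and Slc27a1, which carry fatty acids into mitochondria and cells, ranged in CK from 133 to 149 and from 299 to 332 normalized CPM, and in DCM from 201 to 211 and from 480 to 544. In SPM they ranged from 156 to 179 and from 350 to 381. Whether any of these genes is linked to the 5 was not tested.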

How the data were processed

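Gene expression was measured by RNA-seq in 9 mouse heart libraries, 3 each of CK, DCM and SPM. The authors deposited counts, whole numbers per gene and library, and FPKM values, which equal the count divided by a gene length and the library total. Submitters' processing notes name Bowtie 0.12.2 and the builds mm8 and mm9 without a role. For the counting tool and annotation, the sources used here are silent. Pairs of groups were compared with the edgeR 4.0.16 quasi-likelihood test (R 4.3.3) after filterByExpr and TMM normalization, with limits of 0.05 (adjusted by Benjamini-Hochberg) and 1.5 for p and fold change. DESeq2 1.42.0, other filters and scalings, GC correction (lowess span 0.3), a replicate block and each library left out were alternatives. Steps were tested on simulated data. Members and lists were chosen with earlier results of these data known. Besides the members, the text names the called genes of each list (at most 4 per comparison), the 2 most abundant by FPKM, and 3 genes most like each member in log2 CPM (prior count 2). Rab3, Kv3 and ASIC relatives, Pgpep1, Cgrrf1, Rest, Th, Chat, Nefm, Rbfox3, Snap25, Syt1, Stmn2, Chgb, Myh6 and neuroendocrine genes without counts were added after their values were seen. For 1 gene of the Kv list and 1 of the retina list, values are not reported here. P-values measure the spread between libraries, whose pooling is unclear. Exact 95% intervals of counts used scipy 1.17.1, and other steps Python 3.11.15, numpy 2.4.6 and pandas 2.3.3.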

Additional observations from a re-analysis of the deposited data

How the results depend on the processing

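The log2 fold changes of the 5 genes kept their direction under the alternatives run, except Cgref1 in SPM compared to CK, which lay between -0.12 and 0.28 with each library left out. Under the alternatives 159 values moved by less than the spread between replicates (1 SD of log2 values) and 3 by more. Those 3 were Kcnc1 in DCM compared to CK without CK replicate 1 (1.32), and Pgpep1l without SPM replicate 2 in SPM compared to DCM (-2.82) and SPM compared to CK (-2.95). Low counts limit these genes, since 9 to 12 counts stand behind the SPM level of Rab3a, Kcnc1 and Pgpep1l.

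The number of genes called was 625 in DCM compared to CK, 521 in SPM compared to DCM and 1342 in SPM compared to CK, and without a fold-change limit 1497, 2410 and 3989. GC correction left 134 in SPM compared to DCM. With each library left out the numbers ranged from 427 to 704, from 56 to 791 and from 771 to 1589, and in SPM compared to DCM DCM replicate 1 left out gave 280, DCM replicate 2 gave 73, SPM replicate 2 gave 56 and SPM replicate 3 gave 791. The lowest in SPM compared to CK was without SPM replicate 2. The list genes called were 2, 3 and 10, and 7, 16 and 26 without a fold-change limit, with 1 in SPM compared to DCM under GC correction. They ranged from 2 to 4, from 1 to 4 and from 6 to 12 with each library left out. The cause of these changes was not tested.

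The replicate numbers did not pair the libraries. Correlations of deviations lay between -0.0746 and 0.205 for libraries of the same number and between -0.284 and 0.217 for others. With the replicate block 568, 610 and 1282 genes and 2, 3 and 8 list genes were called in the 3 comparisons.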

Other observations

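The nearest genes on each side of the 5 genes that passed the low-count filter were set beside them, a choice made after their values had been seen. Rab3a lies between Pde4c and Pik3r2, and Pik3r2, a regulatory subunit of phosphoinositide 3-kinase, had 1.02, 0.781 and 0.778 normalized CPM in CK, 2.26, 4.6 and 1.11 in DCM and 1.75, 1.42 and 8.85 in SPM. Unlike Rab3a, it had its highest library in SPM. It was called higher in DCM compared to CK (log2 fold change 1.62, adjusted p = 0.0408 with edgeR) and the call was lost under 6 alternatives. It was called higher in SPM compared to CK as well (log2 fold change 2.21, adjusted p = 0.0407 with edgeR), a call lost under 5 alternatives that included SPM replicate 3 left out.

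Sergef, next to Kcnc1, had 5.10, 4.63 and 5.32 normalized CPM in CK, 5.90, 6.16 and 5.22 in DCM and 3.66, 3.86 and 4.07 in SPM. All SPM libraries were lowest, as for Kcnc1, but the log2 fold change of -0.58 in SPM compared to DCM stayed below the fold limit (adjusted p = 0.0299 with edgeR). Chpf, an enzyme of chondroitin synthesis next to Asic4, was lower in SPM compared to CK (log2 fold change -0.78, adjusted p = 0.00207 with edgeR). Khk, the fructose kinase next to Cgref1, ranged over 21.5 to 24.7 normalized CPM (CK), 30.5 to 34.5 (DCM) and 25.6 to 31.6 (SPM), with a log2 fold change of 0.49 in DCM compared to CK (adjusted p = 0.00469 with edgeR). Ush1c, Gmppa, Abhd1, Igf1r and Fam169b were called in no comparison.

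Markers of skeletal muscle, another excitable tissue, gave few calls. Casq1, the calcium store protein of fast muscle, was downregulated in DCM compared to CK, from 8.89, 7.34 and 8.46 normalized CPM to 2.61, 1.86 and 2.70 (log2 fold change -1.77, adjusted p = 0.000124 with edgeR), and stayed low in SPM, at 3.11, 3.41 and 3.38. The only call of this list in SPM compared to DCM was Actn3, at -1.60 (adjusted p = 0.0413 with edgeR). It was lost under 7 alternatives that included SPM replicate 2 left out. In SPM compared to CK both were called, Casq1 at -1.32 (adjusted p = 0.000932 with edgeR) and Actn3 at -1.45 (adjusted p = 0.0416 with edgeR), the latter lost under 9 alternatives that included SPM replicate 2 left out. Mylpf, with Casq1 the most abundant gene of the list per length, had -0.60 in DCM compared to CK and 0.20 in SPM compared to DCM. The list summed to 12.8 to 15.4 normalized CPM for CK, 5.79 to 7.99 for DCM and 7.06 to 8.37 for SPM. Casq1, whose fall is given above, was the largest part of this sum in every library.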
